A study of Mus musculus with 16 samples.

Results

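The genes described here are the enzymes, regulators and carriers of cholesterol and fatty acid synthesis, 36 genes chosen by name, as measured in the mouse skull roof. Each gene was represented by the array probe annotated to it, and where several probes were annotated, by the one with the highest mean level over the arrays, so the mean level is a criterion of choice and not a result. Of the 36 genes, 33 had a probe and all 33 passed the filter on dim probes, out of 9914 genes tested and 16593 genes with a named probe; Mvk, Fdft1 and Acat2 had no probe and were not analysed here. The 33 genes were given 45 probes in all.

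Expression was profiled in calvaria, which form the roof of the skull, from male mice at postnatal day 7, in 4 genotypes with 4 mice each by design. The wild-type group is abbreviated WT, Runx2+/- mice are R-Het, Axin2-/- mice are A-KO, and Axin2-/- mice that were also Runx2+/- are A-KO:R-Het. Axin2 restrains Wnt signalling by promoting the breakdown of beta-catenin, and Runx2 is the transcription factor that osteoblasts need. The labels name no treatment, and the strain and the construction of the alleles are not given in the sources used here. One A-KO array, replicate 2, is labelled as damaged and was left out, which leaves 3 A-KO arrays and 4 of each other genotype, each from 1 mouse. Replicate numbers follow record order and do not pair mice. Each of the 2 chips held arrays of all 4 genotypes.

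Cells make cholesterol from acetyl-CoA through mevalonate, farnesyl diphosphate, squalene and lanosterol, and the same acetyl-CoA feeds fatty acid synthesis. Transcription of most of these enzymes is driven by the SREBP factors, which the genes Srebf1 and Srebf2 encode. When sterols are scarce, Scap escorts SREBP out of the endoplasmic reticulum for activation, and when sterols are plentiful, the Insig proteins hold the complex back. In bone, statins, which block the mevalonate pathway, and bisphosphonates, which inhibit farnesyl diphosphate synthase in osteoclasts, act on steps of this pathway.

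Values are the authors' normalized intensities on a log2 scale, and levels of different probes are not comparable. Array medians ran from 92.9 to 95.5 in intensity, and array maxima from 22344 to 28330, against 80919 on the damaged array. Changes were tested with limma over all 9914 genes, with Benjamini-Hochberg adjusted p-values and a threshold of 0.05, and a gene is said to have risen or fallen only past that threshold. All 7 measured osteoblast markers passed the filter, with a summed intensity of 72633 to 105960 on the WT arrays. Summed skeletal muscle genes ranged from 4750 to 133886 across arrays, and from 4750 to 131662 within R-Het alone. Fasn, Tm7sf2, Srebf1 and Fads2 lay near the median of the arrays, above it on 4, 6, 8 and 9 of the 15 arrays. Small changes of these 4 genes are therefore hard to detect. Lss, Nsdhl, Idi1, Sc5d and Mvd lay above the median on 14 or 15 arrays, but not far above it in WT. Their mean WT intensities ran from 98.8 to 109.1, with Lss at 104.9. In bulk bone, fewer cells of a type and less RNA per cell cannot be told apart.

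Loss of Axin2 with both Runx2 alleles present was compared as A-KO against WT, and 2 of the 33 genes rose, one a sterol enzyme and the other an enzyme of glycerolipid synthesis. Lss, lanosterol synthase, rose by 0.53 ± 0.11 (log2 change ± SE, 1.44-fold), and Agpat2, an acyltransferase of phosphatidic acid and triglyceride synthesis, rose by 0.50 ± 0.09 (1.42-fold). Those were 2 of 33 members past the threshold, with 0 lower, where limma called 31 of all 9914 genes, 0.313%, and 8 of them higher, 0.0807%. The rise of both genes was known from earlier results of these data. Of the 33 members, 29 had a change above 0, against 51.7% of all genes tested, and 18 were higher at an unadjusted p under 0.05, against 7.08%. The median change was 0.38 over the members and 0.01 over all genes. On 17 members the A-KO arrays all lay above all WT arrays, a pattern found in 7.63% of all genes.

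**Figure D1:**
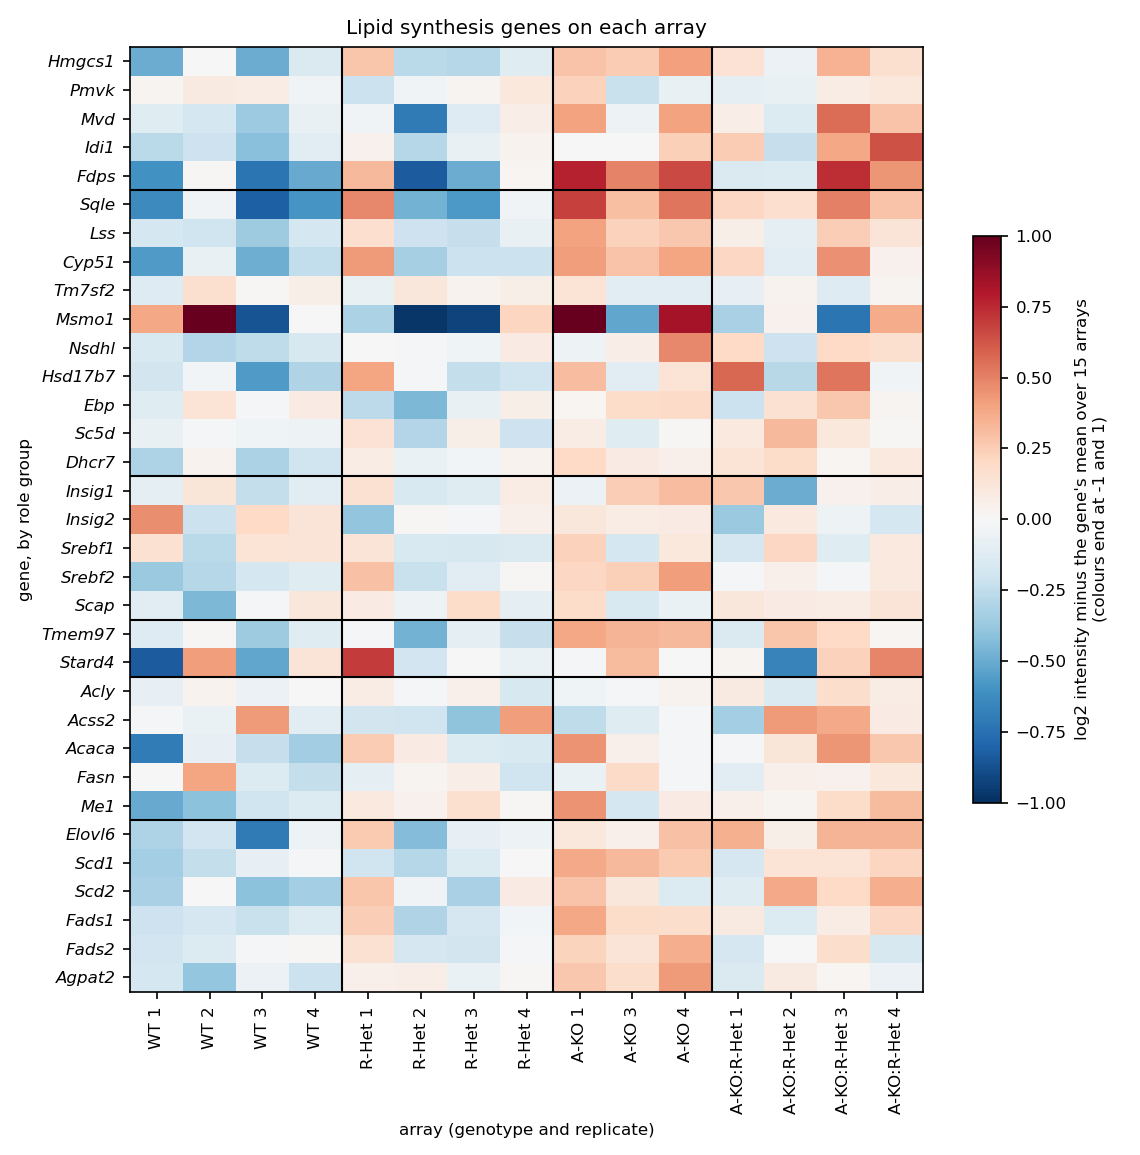
Log2 intensity of the 33 measured genes (rows, by role group) on each of the 15 arrays (columns, by genotype), as the difference from the gene's mean over the 15 arrays, with colours ending at -1 and 1. The A-KO columns are mostly red and the WT columns mostly blue, with 22 to 26 of 33 genes above their mean on the A-KO arrays and 5 to 11 on the WT arrays.

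In the steps from acetyl-CoA units to squalene, 0 of 5 measured genes rose past the threshold, and 4 of the 5 had A-KO arrays entirely above the WT arrays. Fdps, which makes farnesyl diphosphate and is the target of nitrogen-containing bisphosphonates, was at 8.91, 9.52, 8.78 and 9.0 on the WT arrays and at 10.28, 10.002 and 10.17 on the A-KO arrays. Those groups do not overlap, and the difference of 1.10 ± 0.26 (2.14-fold) had a limma adjusted p of 0.078. Hmgcs1, the cytosolic synthase that makes HMG-CoA, was at 11.36, 11.86, 11.37 and 11.72 in WT and at 12.15, 12.12 and 12.28 in A-KO, again without overlap, a difference of 0.60 ± 0.15 with a limma adjusted p of 0.092. Mvd, the decarboxylase that yields isopentenyl diphosphate, differed by 0.44 ± 0.18, and Idi1, its isomerase, by 0.33 ± 0.16. Pmvk, phosphomevalonate kinase, differed by only -0.06 ± 0.11, with overlapping arrays.

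From squalene to cholesterol, 1 of 10 genes rose in A-KO against WT, and the median change was 0.38. Lss was at 6.76, 6.74, 6.59 and 6.76 on the WT arrays and at 7.35, 7.17 and 7.21 on the A-KO arrays. On the R-Het arrays it was at 7.11, 6.73, 6.71 and 6.86, and on the A-KO:R-Het arrays at 7.0, 6.85, 7.19 and 7.07. Every A-KO array lay above every WT and R-Het array, and the A-KO:R-Het arrays lay above WT but overlapped A-KO and R-Het. Its adjusted p in A-KO against WT was 0.049 by limma, just inside the threshold.

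Sqle, squalene epoxidase, which introduces oxygen and is a rate-controlling step, was at 8.56, 9.16, 8.38 and 8.61 on the WT arrays and at 9.68, 8.72, 8.62 and 9.16 on the R-Het arrays. It was at 9.87, 9.49 and 9.73 on the A-KO arrays and at 9.40, 9.36, 9.70 and 9.48 on the A-KO:R-Het arrays. All 7 arrays without Axin2 were above all WT arrays, while R-Het replicate 1 reached the Axin2-null range. The A-KO difference from WT was 1.02 ± 0.22 (2.03-fold), with a limma adjusted p of 0.053. The second Sqle probe, above the array median on 10 of the 15 arrays, differed by 0.95. In A-KO:R-Het against R-Het that probe differed by 0.19, against 0.44 for the probe used. Cyp51, the lanosterol demethylase, differed by 0.71 ± 0.17 with an adjusted p of 0.087 by limma and no overlap of A-KO with WT.

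The later sterol enzymes were less uniform. Nsdhl, a dehydrogenase of sterol demethylation, differed by 0.38 ± 0.12 and Dhcr7, the last reductase of cholesterol synthesis, by 0.31 ± 0.09, both with A-KO above WT on every array and limma adjusted p-values of 0.192 and 0.160. Of the other Nsdhl probes, those that differed in the same direction gave 0.28 and 0.14, and the last gave -0.04. The last lay above the array median on 9 of the 15 arrays, and the probe used and the others on 14. Hsd17b7, a sterol ketone reductase, differed by 0.38 ± 0.20 with overlapping arrays. Ebp, Sc5d and Tm7sf2, which isomerize, desaturate and reduce sterol double bonds, differed by 0.11, 0.03 and -0.05, each within its standard error of 0.13, 0.11 and 0.09.

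Msmo1, the methylsterol oxidase, varied widely within genotypes. It was at 8.39, 9.25, 7.15 and 8.01 in WT, at 7.69, 7.03, 7.09 and 8.23 in R-Het, at 9.57, 7.49 and 8.84 in A-KO, and at 7.68, 8.05, 7.28 and 8.38 in A-KO:R-Het. All 4 genotypes overlap, and the SD within A-KO was 1.06 (n = 3). Its A-KO difference of 0.43 ± 0.48 therefore has a 95% interval from -0.59 to 1.45.

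Among the regulators, Srebf2, which encodes the SREBP factor that mainly drives sterol genes, was at 7.77, 7.86, 7.97 and 8.03 on the WT arrays and at 8.44, 7.92, 8.04 and 8.16 on the R-Het arrays. It was at 8.36, 8.39 and 8.56 on the A-KO arrays and at 8.14, 8.20, 8.14 and 8.24 on the A-KO:R-Het arrays. A-KO was above WT and above A-KO:R-Het on every array, and R-Het replicate 1 alone among the other genotypes reached the A-KO range. The A-KO difference from WT was 0.53 ± 0.11 (1.44-fold) and just missed the threshold, with a limma adjusted p of 0.053. Srebf1, which encodes the factor more tied to fatty acid genes, differed by 0.01 ± 0.13, Scap by 0.11 ± 0.12 and Insig1 by 0.25 ± 0.15, all with overlapping arrays. The other Insig1 probes above the array median differed by 0.43 and 0.33.

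Insig2, which unlike Insig1 is not a strong SREBP target, was at 10.11, 9.42, 9.84 and 9.77 in WT, at 9.24, 9.65, 9.61 and 9.69 in R-Het, at 9.75, 9.71 and 9.72 in A-KO, and at 9.26, 9.74, 9.58 and 9.46 in A-KO:R-Het. All genotypes overlap with WT, and the A-KO difference was -0.06 ± 0.15, with a second bright probe at -0.35.

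Tmem97 is a sterol-regulated membrane protein of the endoplasmic reticulum, and its A-KO values lay close together. It was at 9.47, 9.61, 9.24 and 9.48 in WT, at 9.58, 9.13, 9.51 and 9.37 in R-Het, at 9.99, 9.94 and 9.93 in A-KO, and at 9.46, 9.88, 9.80 and 9.63 in A-KO:R-Het. All A-KO arrays were above all arrays of the other genotypes, and the SD within A-KO was 0.03 (n = 3). The A-KO difference from WT of 0.50 ± 0.12 had a limma adjusted p of 0.089. Stard4, a cytosolic sterol carrier, differed by 0.30 with overlapping arrays.

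The differences of the fatty acid genes were uneven, and no test compared one gene with another. Acly, which makes cytosolic acetyl-CoA from citrate, and Fasn, which builds palmitate, differed between A-KO and WT by 0.02 ± 0.09 and 0.03 ± 0.13, and Acss2, which makes acetyl-CoA from acetate, by -0.19 ± 0.20. Acaca, acetyl-CoA carboxylase, was at 8.91, 9.53, 9.38 and 9.27 in WT, at 9.86, 9.69, 9.48 and 9.46 in R-Het, at 10.06, 9.66 and 9.59 in A-KO, and at 9.59, 9.73, 10.05 and 9.88 in A-KO:R-Het. The arrays of both Axin2-null genotypes lay above all WT arrays, by 0.50 ± 0.16 and 0.54 ± 0.15, with limma adjusted p-values of 0.179 and 0.071. Me1, malic enzyme, which supplies NADPH, was at 8.36, 8.46, 8.67 and 8.73 in WT, at 8.96, 8.91, 9.03 and 8.88 in R-Het, at 9.32, 8.69 and 8.95 in A-KO, and at 8.92, 8.89, 9.05 and 9.19 in A-KO:R-Het. All R-Het and A-KO:R-Het arrays were above all WT arrays, while A-KO replicate 3 lay among them. The second Me1 probe differed by 0.20 in A-KO against WT, against 0.43 for the probe used.

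All 6 genes that elongate or desaturate fatty acids or build glycerolipid had a change above 0 in A-KO against WT, with a median of 0.45, and 1 of the 6, Agpat2, rose past the threshold. Agpat2 was at 7.53, 7.32, 7.65 and 7.49 in WT, at 7.76, 7.78, 7.64 and 7.72 in R-Het, at 7.98, 7.88 and 8.14 in A-KO, and at 7.56, 7.80, 7.73 and 7.65 in A-KO:R-Het. Each A-KO array was above every array of the other genotypes, and limma gave an adjusted p of 0.037 against WT. Scd1, a stearoyl-CoA desaturase, was at 8.83, 8.93, 9.09 and 9.15 in WT, at 8.97, 8.88, 9.03 and 9.18 in R-Het, at 9.55, 9.49 and 9.43 in A-KO, and at 9.0, 9.31, 9.30 and 9.39 in A-KO:R-Het. Here too A-KO exceeded every other array, and A-KO:R-Het overlapped WT only through replicate 1. The A-KO difference of 0.49 ± 0.11 from WT had a limma adjusted p of 0.058.

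Elovl6, which elongates palmitate, was at 7.86, 7.98, 7.47 and 8.12 in WT, at 8.44, 7.74, 8.09 and 8.12 in R-Het, at 8.28, 8.22 and 8.46 in A-KO, and at 8.53, 8.23, 8.52 and 8.52 in A-KO:R-Het. Both Axin2-null genotypes lay above WT on every array, and both overlapped R-Het. Fads2, a desaturase of polyunsaturated fatty acids, was at 6.44, 6.49, 6.61 and 6.64 in WT, at 6.78, 6.46, 6.45 and 6.61 in R-Het, at 6.86, 6.77 and 7.0 in A-KO, and at 6.46, 6.63, 6.80 and 6.48 in A-KO:R-Het. A-KO was above WT on every array and overlapped A-KO:R-Het. Fads1, the other such desaturase, differed by 0.43 without overlap, with a limma adjusted p of 0.124, and Scd2, a second stearoyl-CoA desaturase, by 0.36 with overlap.

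**Figure D2:**
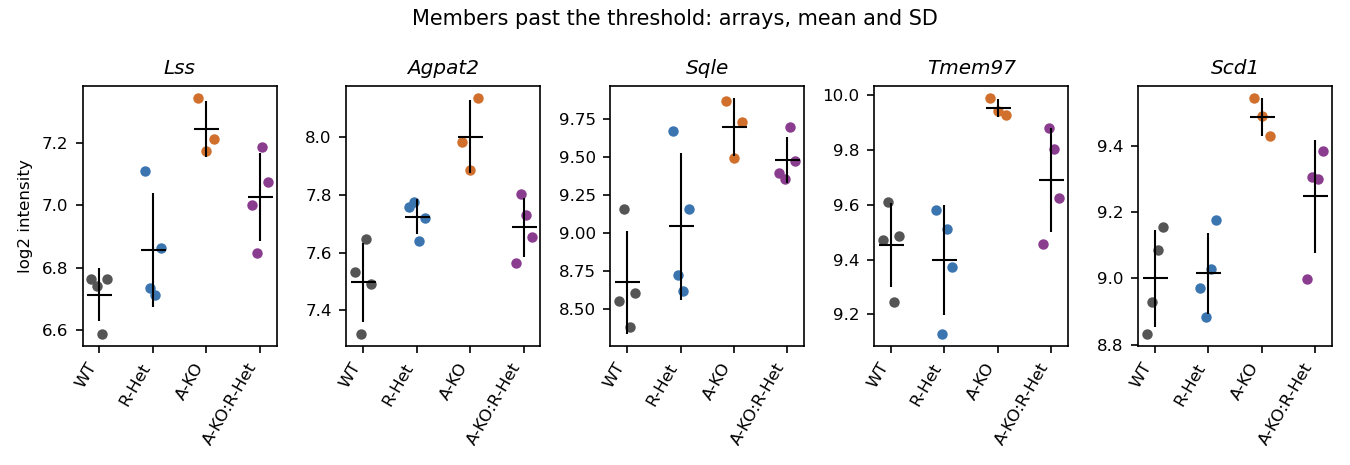
Log2 intensity of the 5 genes past the threshold in any comparison, one point per array, with the mean (horizontal bar) and SD (vertical bar) of each genotype; the axes do not start at 0. The 3 A-KO arrays lie above all WT arrays in each panel.

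The count of 2 genes in A-KO against WT depended on single arrays. No member passed when WT replicate 1, any of the 3 A-KO arrays, or A-KO:R-Het replicate 3 or 4 was left out. In these settings limma called 4 to 16 of all genes, against 31 with no further array left out. Only Agpat2 passed when WT replicate 3 or R-Het replicate 3 was left out, and only Sqle when WT replicate 2 was, where limma called 15, 26 and 19 of all genes. With WT replicate 4 or R-Het replicate 2 left out 3 members passed, where limma called 59 and 42 of all genes. With A-KO:R-Het replicate 1 left out 4 did, where it called 73. With R-Het replicate 1 or R-Het replicate 4 left out 5 did, where limma called 41 and 69 of all genes. Within chip 1 the median change of the members was 0.41, with 28 of 33 above 0, and within chip 2 it was 0.36, with 26 of 33. With the damaged array left out, A-KO replicate 1 was the only A-KO array on chip 1. On chip 2 alone 0 members passed, where limma called 0 of all genes.

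With 1 Runx2 allele missing on both sides, A-KO:R-Het against R-Het, 0 of 33 members passed the threshold. This comparison shares no array with A-KO against WT, and limma called 0% of all genes in it. The change was above 0 in 28 of 33 members, against 52.1% of all genes, with a median of 0.17, and 6 members were higher at an unadjusted p under 0.05, against 3.38%. The smallest p belonged to Tmem97, at 0.29 ± 0.11, followed by Elovl6, at 0.35 ± 0.15, and Scd1, at 0.23 ± 0.10, with limma adjusted p-values of 0.749, 0.753 and 0.753. On 0 of 33 members did the A-KO:R-Het arrays lie entirely above R-Het, against 1.48% of all genes.

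Across these separate sets of arrays, 26 of 33 members (78.8%) had a change above 0 both times, against 30.6% of all genes. Mvd, Sqle, Tmem97, Elovl6 and Scd1 were higher at an unadjusted p under 0.05 in both, 5 of 33 members, against 0.686% of all genes. They were 5 of the 18 members so marked in A-KO against WT and 5 of the 6 in A-KO:R-Het against R-Het. Over all genes, 68 were so marked in both, of 702 in A-KO against WT and 335 in A-KO:R-Het against R-Het. Members move together on an array, so these counts are not counts of independent genes. Within chip 1 the median change with 1 Runx2 allele was 0.03, with 22 of 33 above 0, and within chip 2 it was 0.18, with 31 of 33.

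**Figure D3:**
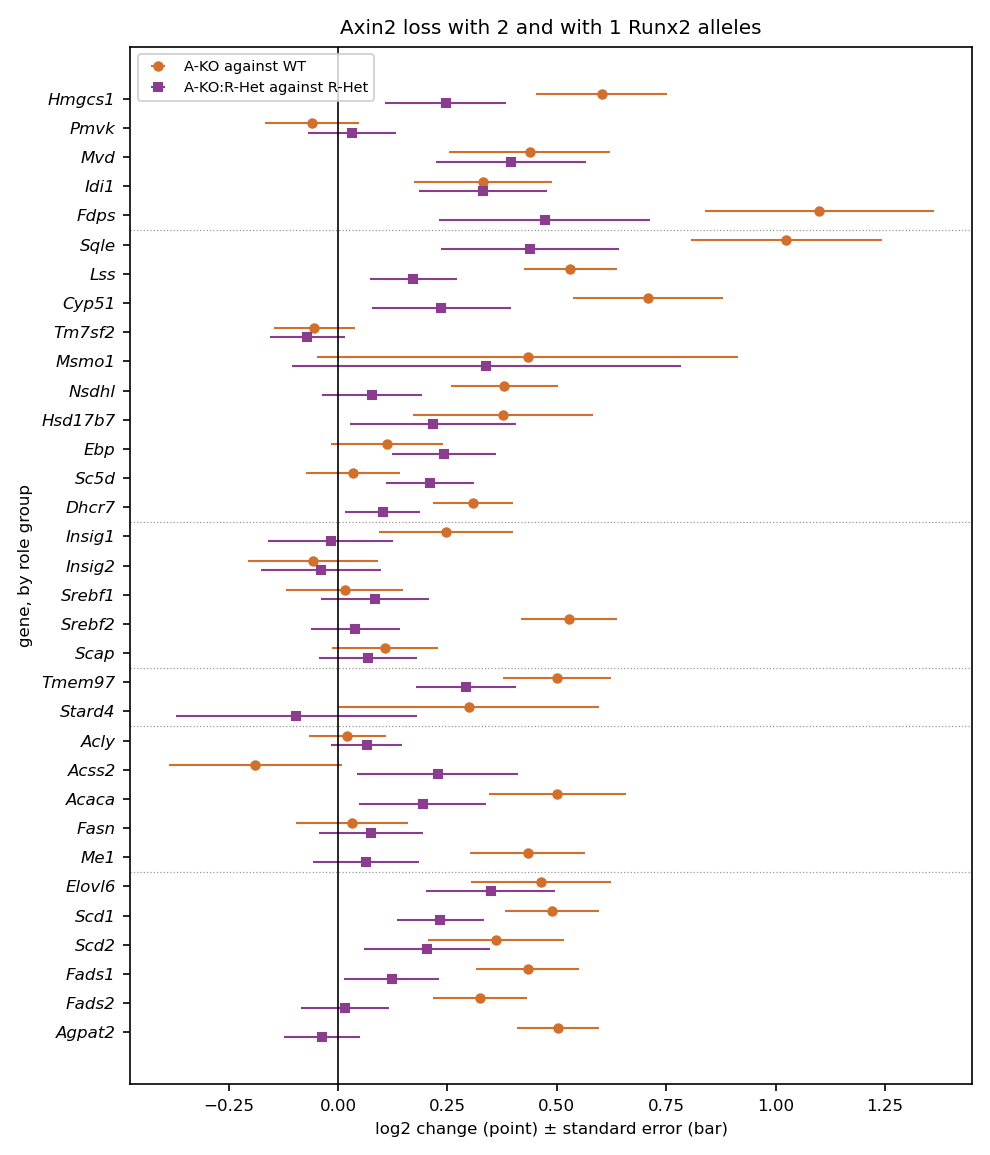
Log2 change (point) and standard error (bar) of each measured gene, by role group, for A-KO against WT (circles) and A-KO:R-Het against R-Het (squares). Circles lie right of 0 for 29 of the 33 genes and squares for 28, against 51.7% and 52.1% of all genes tested.

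Averaged over both Runx2 backgrounds, 4 of 33 members rose with loss of Axin2 and 0 fell, where limma called 0.646% of all genes and 0.182% higher. Sqle rose by 0.73 ± 0.15 (1.66-fold, adjusted p = 0.035 by limma), Scd1 by 0.36 ± 0.07 (1.28-fold, 0.035), Lss by 0.35 ± 0.07 (1.28-fold, 0.037) and Tmem97 by 0.40 ± 0.08 (1.32-fold, 0.041). With chip as a block Tmem97 no longer passed, with a limma adjusted p of 0.056, nor did Lss in A-KO against WT, at 0.058. Fdps, at 0.79 ± 0.18, and Hmgcs1, at 0.42 ± 0.10, did not pass, with limma adjusted p-values of 0.057 and 0.071. Above 0 were 30 of 33 members, against 53.2% of all genes, with a median of 0.25, and 20 were higher at an unadjusted p under 0.05, against 7.19%. Leaving out 1 array brought the count to 0 for WT replicates 1 and 3, R-Het replicates 2 and 3, A-KO replicates 1 and 4, and A-KO:R-Het replicates 3 and 4. The count was 1 when WT replicate 4 or A-KO replicate 3 was left out, 2 and 5 when A-KO:R-Het replicate 2 and replicate 1 were, 3 when WT replicate 2 was, 10 when R-Het replicate 1 was, and 4 when R-Het replicate 4 was. Where the count was 0, limma called 21 to 47 of all genes in this comparison, against 64 with no further array left out. Where 1 member passed, limma called 60 and 50 of all genes, in the order given. For counts of 2, 3 and 4 members the calls over all genes were 49, 50 and 79. The counts of 5 and 10 members came with 199 and 104 calls over all genes.

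The interaction, which asks whether Axin2 loss differed between the Runx2 backgrounds, had 0 of 33 members past the threshold, and limma called 0% of all 9914 genes. The median interaction of the members was -0.21, with 9 of 33 above 0 against 50.8% of all genes, and 3 members were lower at an unadjusted p under 0.05, against 3.44% of all genes. Agpat2 had -0.54 ± 0.13 (95% interval -0.81 to -0.27), Srebf2 -0.49 ± 0.15 and Lss -0.36 ± 0.15, with limma adjusted p-values of 0.743, 0.743 and 0.788. A smaller response with 1 Runx2 allele was not shown by the test across all genes.

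Loss of 1 Runx2 allele alone, R-Het against WT, moved 0 of 33 members past the threshold, where limma called 0.0504% of all genes. At an unadjusted p under 0.05, 5 members were higher, against 4.62%, and 0 lower. Me1 had the smallest p, at 0.39 ± 0.12 (1.31-fold), followed by Agpat2, at 0.23 ± 0.09, and Acaca, at 0.35 ± 0.15, with limma adjusted p-values of 0.277, 0.425 and 0.475. The change was above 0 in 23 of 33 members, against 51.3% of all genes. Me1 and Nsdhl had R-Het arrays entirely above WT, 2 of 33 members against 2.59% of all genes. The median change was 0.14 and went to 0.04 without R-Het replicate 1, on which 23 of 33 members lay above their 15-array mean, against 6 to 17 on the other R-Het arrays.

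On the Axin2-null background, A-KO:R-Het against A-KO, again 0 of 33 members passed, where limma called 0.555% of all genes. Here 5 members were lower at an unadjusted p under 0.05, against 5.27%, and 11 lay above 0, against 49.8%. Agpat2 differed by -0.31 ± 0.09, Fads2 by -0.28 ± 0.11 and Srebf2 by -0.26 ± 0.11, with limma adjusted p-values of 0.192, 0.338 and 0.407. Agpat2, Srebf2, Scd1 and Tmem97 had A-KO:R-Het arrays entirely below A-KO, 4 of 33 members against 5.6% of all genes. Averaged over both Axin2 backgrounds, loss of 1 Runx2 allele also moved 0 members past the threshold, where limma called 1.63% of all genes. Me1 differed by 0.21 ± 0.09, Msmo1 by -0.74 ± 0.33 and Insig2 by -0.23 ± 0.10, with limma adjusted p-values of 0.339, 0.358 and 0.366, and 16 of 33 members lay above 0, against 49.9% of all genes.

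Comparing A-KO:R-Het, which carries both mutations, with WT left 0 of 33 members past the threshold, where limma called 1.89% of all genes, yet 18 members were higher at an unadjusted p under 0.05, against 7.21%. Sqle differed by 0.81 ± 0.20 (1.75-fold), Elovl6 by 0.59 ± 0.15 (1.5-fold) and Me1 by 0.46 ± 0.12 (1.37-fold), with limma adjusted p-values of 0.052, 0.053 and 0.068. The A-KO:R-Het arrays lay entirely above WT on 7 members, against 4.48% of all genes. The change was above 0 in 28 of 33 members, against 52.7%, with a median of 0.24. Without 1 array the count past the threshold ranged from 0 to 2, with Sqle and Elovl6 passing without R-Het replicate 1, and Sqle and Dhcr7 without WT replicate 2. Leaving out WT replicate 4, R-Het replicate 2, R-Het replicate 3, A-KO replicate 1, A-KO replicate 3, A-KO:R-Het replicate 1 or A-KO:R-Het replicate 2 let a single member pass. There limma called 139 to 222 of all genes. This comparison uses the same WT arrays as A-KO against WT and R-Het against WT, so the 3 sets of values are not independent.

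**Figure D4:**
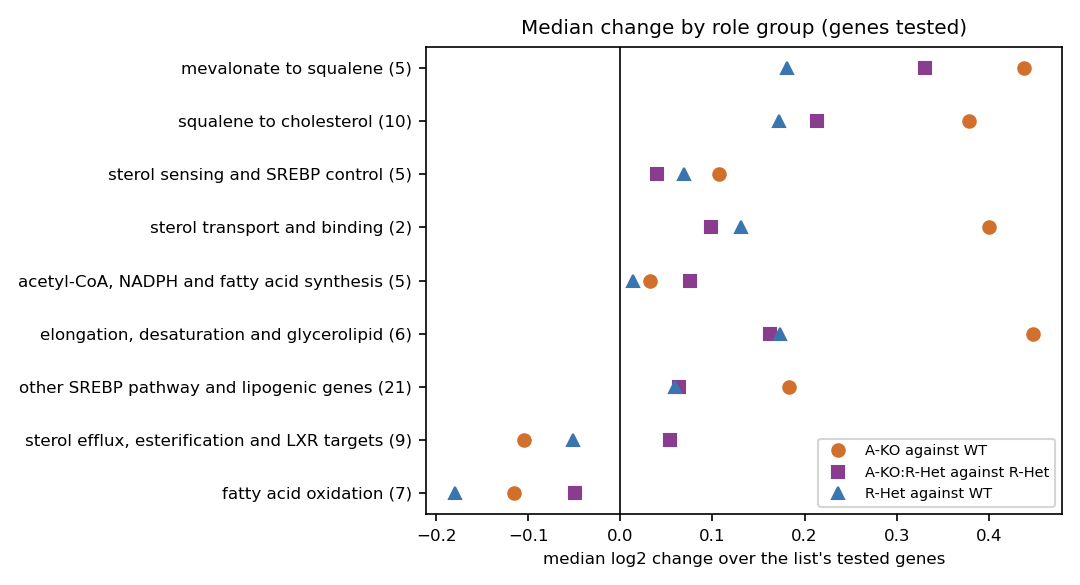
Median log2 change of the tested genes of each role group (number tested in brackets) and of neighbouring lipid lists, for A-KO against WT (circles), A-KO:R-Het against R-Het (squares) and R-Het against WT (triangles), without error bars. The circles of the mevalonate, squalene-to-cholesterol, transport and desaturase groups lie between 0.38 and 0.45, and those of fatty acid synthesis, efflux and oxidation between -0.12 and 0.03.

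By role group, the A-KO median was 0.44 for the 5 genes up to squalene, 0.38 for the 10 genes from squalene on, 0.11 for the 5 regulators, 0.40 for the 2 transport genes, 0.03 for the 5 genes of acetyl-CoA, NADPH and fatty acid synthesis, and 0.45 for the 6 genes of elongation, desaturation and glycerolipid. Among 21 tested genes of a wider list of SREBP pathway and lipogenic genes, the A-KO median was 0.18 and 0 passed in A-KO against WT. Pcyt2, an enzyme of phosphatidylethanolamine synthesis on that list, rose with averaged Axin2 loss by 0.35 ± 0.07 (adjusted p = 0.0248 by limma) and in A-KO:R-Het against WT by 0.41 ± 0.09. Aacs, which activates acetoacetate for lipid synthesis, rose in A-KO:R-Het against WT by 0.51 ± 0.12. Genes that use isoprenoids (9 tested, median 0.08), genes of sterol efflux and esterification (9 tested, -0.10) and genes of fatty acid oxidation (7 tested, -0.12) had 0 past the threshold in A-KO against WT. Ch25h, which hydroxylates cholesterol, was the one gene of these 3 lists past the threshold in any comparison and rose by 0.51 ± 0.12 with averaged loss of 1 Runx2 allele.

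B cell markers fell in A-KO, while 0 of the measured neutrophil, erythroid and macrophage markers passed the threshold there. All 6 measured B cell genes, of 8 listed, fell in A-KO against WT, with a median change of -1.28, and their summed intensity was 492 to 621 on the A-KO arrays, 776 to 997 on the A-KO:R-Het arrays, 978 to 1694 on the R-Het arrays and 1104 to 1596 on the WT arrays. The A-KO range lies below that of WT, so B cell level and Axin2 loss cannot be told apart in that comparison. With the B cell level added to the fit as a covariate, chosen after seeing the data, the members' median change in A-KO against WT was 0.11. There 23 of 33 members were above 0 and 0 past the threshold, where limma called 0 of all genes. Lss then differed by 0.11 and Agpat2 by 0.46, both with a limma adjusted p of 0.997. In averaged Axin2 loss, Lss was at 0.07, Sqle at 0.09, Tmem97 at 0.21 and Scd1 at 0.23 with that covariate, none past the threshold, where limma called 0 of all genes.

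In A-KO against WT the median change was -0.86 for the 8 neutrophil genes, -0.70 for the 5 erythroid genes, -1.03 for the 16 skeletal muscle genes and -0.45 for the 8 cartilage genes, with 0 genes of each list above 0. It was 0.26 for the cell cycle list and -0.16 for the adipocyte list, and 0 genes of these 6 lists passed the threshold in that comparison. Pparg, on the adipocyte list, fell in A-KO:R-Het against WT by 0.48 ± 0.09 (adjusted p = 0.012 by limma). In A-KO:R-Het against A-KO, 6 of 8 tested cartilage genes rose and 2 of 8 osteoclast genes fell. Summed intensities of a list take in every listed gene with a probe, dim or not. The summed neutrophil intensity was 5653 to 9366 in A-KO and 10783 to 19407 in WT, and the erythroid sum 2017 to 2361 and 4695 to 7109, so on both lists A-KO lay entirely below WT. The A-KO sums of muscle and cartilage genes overlapped those of WT. With the neutrophil level as covariate 0 members passed in A-KO against WT and 0 in averaged Axin2 loss, with 27 and 28 of 33 above 0. Over all genes limma then called 7 and 3. With the cell cycle level as covariate 1 member passed in A-KO against WT and 0 in averaged Axin2 loss, with 27 and 30 of 33 above 0. Over all genes limma then called 40 and 74. The adipocyte markers Plin1, Cidec, Fabp4, Retn and Cd36 did not pass the filter on dim probes. The summed intensity of the 11 adipocyte genes with a probe, these dim ones included, was 3156 to 3496 in A-KO against 4086 to 4829 in WT. The part of the neutrophil, erythroid and cell cycle levels in the lipid gene differences was not tested further. Leaving out WT replicate 3, R-Het replicate 4 and WT replicate 1, the arrays highest in muscle genes, gave 0 members past the threshold in A-KO against WT and in averaged Axin2 loss, with 27 and 29 of 33 above 0. Over all genes limma then called 6 and 18.

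**Figure D5:**
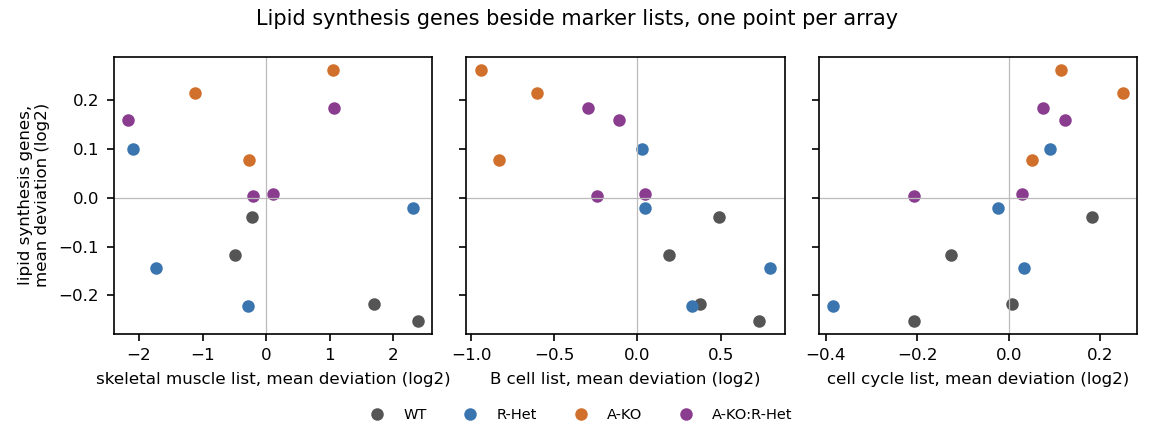
Mean deviation of the 33 lipid synthesis genes (vertical, log2) against the mean deviation of skeletal muscle, B cell and cell cycle markers (horizontal, log2), one point per array, coloured by genotype. The 3 A-KO points are the lowest in B cell markers, between -0.94 and -0.61, and the 4 WT points lie between 0.19 and 0.73, while muscle markers spread over both sides of 0 within each genotype.

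The array means of the 33 genes, each taken as a deviation from its own 15-array mean, were -0.16 ± 0.10 in WT (SD, n = 4), -0.07 ± 0.14 in R-Het (n = 4), 0.18 ± 0.10 in A-KO (n = 3) and 0.09 ± 0.10 in A-KO:R-Het (n = 4). They ranged from -0.25 to -0.04 in WT and from 0.08 to 0.26 in A-KO, without overlap, and from -0.22 to 0.10 in R-Het and from 0.00 to 0.18 in A-KO:R-Het, with overlap. Between 17 and 29 of the 33 genes were above their mean on the A-KO:R-Het arrays. Of 7 members with more than 1 probe, the 12 other probes had the sign of the chosen probe in A-KO against WT in 10 cases, and in 7 of the 8 that passed the filter on dim probes.

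Promoter sequence was examined because most members differed in the same direction in A-KO and SREBP is known to act with the factor NF-Y, which binds CCAAT, and with Sp1, which binds the GC box GGGCGG. RefSeq promoter windows of 300 bases (GRCm38.p6, 250 bases before to 50 after the start) were listed for 29 of the 36 genes, and each was searched on both strands. The 29 genes had 38 windows. A gene, member or not, was counted if any of its windows held the motif. Fdps, Fdft1, Sqle, Stard4, Scd1, Scd2 and Fads1 had no entry. CCAAT or its reverse complement ATTGG stood in 23 of 29 members (79.3%), against 43.3% of the 8005 tested genes with a window, and GGGCGG in 25 (86.2%), against 66.7%. The E-box CACGTG stood in 5 (17.2%), against 11.5%, and the sterol element core TCACNCCAC in 1, Hmgcs1 (3.45%), against 1.37%. These matches are letters in a window and not sites of binding. In A-KO against WT the median change was 0.32 in the 22 measured members with a CCAAT box and 0.46 in the 5 without. With averaged Axin2 loss these medians were 0.22 and 0.23. For the GC box the A-KO medians were 0.33 in 23 members with it and 0.25 in 4 without. Whether the motifs bear on the changes was not tested. Hmgcs1 (chr13:119690101-119690400, plus strand) is shown as the member with the sterol core and with 4 CCAAT boxes, Lss (chr10:76531355-76531654, plus strand) and Tmem97 (chr11:78550686-78550985, minus strand) as risen genes with 1 and 2 CCAAT boxes, and Agpat2 (chr2:26604368-26604667, minus strand) as a risen gene with none and with 3 GC boxes, which are left in lower case. Each runs 5′ to 3′ on the gene's strand, with the sterol core and CCAAT or ATTGG in capitals.
Hmgcs1: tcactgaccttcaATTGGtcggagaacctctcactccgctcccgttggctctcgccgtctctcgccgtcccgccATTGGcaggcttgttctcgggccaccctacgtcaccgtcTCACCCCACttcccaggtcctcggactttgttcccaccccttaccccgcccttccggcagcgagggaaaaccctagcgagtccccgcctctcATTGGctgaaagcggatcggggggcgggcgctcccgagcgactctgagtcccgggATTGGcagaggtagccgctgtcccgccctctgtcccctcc
Lss: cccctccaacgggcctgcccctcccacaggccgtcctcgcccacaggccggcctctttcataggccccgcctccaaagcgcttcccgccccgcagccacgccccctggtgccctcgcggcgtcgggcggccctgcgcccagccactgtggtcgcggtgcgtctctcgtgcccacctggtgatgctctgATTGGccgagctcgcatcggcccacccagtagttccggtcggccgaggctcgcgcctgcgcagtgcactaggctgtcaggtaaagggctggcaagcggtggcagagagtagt
Tmem97: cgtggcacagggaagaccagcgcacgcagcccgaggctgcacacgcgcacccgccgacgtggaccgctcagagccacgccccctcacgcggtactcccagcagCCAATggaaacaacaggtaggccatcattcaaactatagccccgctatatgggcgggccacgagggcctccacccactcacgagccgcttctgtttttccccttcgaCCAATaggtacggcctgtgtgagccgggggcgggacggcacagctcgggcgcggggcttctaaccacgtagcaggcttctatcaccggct
Agpat2: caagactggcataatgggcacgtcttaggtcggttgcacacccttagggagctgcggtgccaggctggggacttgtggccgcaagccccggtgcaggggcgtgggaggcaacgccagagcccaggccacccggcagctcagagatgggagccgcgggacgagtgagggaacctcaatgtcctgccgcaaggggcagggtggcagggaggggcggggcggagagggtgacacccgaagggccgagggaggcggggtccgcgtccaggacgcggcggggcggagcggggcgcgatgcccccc
In Hmgcs1 the sterol core TCACCCCAC starts at -137 from the annotated start, and the single box of Lss at -62. The boxes of Tmem97 start at -147 and -40.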

How the data were processed

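Total RNA of calvaria was hybridised to single-colour Illumina bead arrays, from 200 ng per array per the labels' protocols. Every value is an intensity that the authors deposited after their own normalization, on a linear scale. Neither that normalization nor any background correction is described in the labels or headers. The design first planned started from scanner signals with detection p-values, but the 32 columns of that table could be matched to no sample label and were not used. The planned detection filter was therefore replaced by requiring a probe above its array's median on at least 3 of 15 arrays, with one probe per gene. The deposited intensities were put on a log2 scale and fitted with lmFit and eBayes of limma 3.58.1 in R 4.3.3, with 1 mean per genotype and all 15 arrays sharing one spread. The 8 comparisons were tested two-sided, adjusted by Benjamini-Hochberg over all 9914 genes; the p-values measure the spread between mice. The script was tested on simulated data.

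Of 25697 probes, 23978 had 1 gene symbol, 0 several and 1719 none, and 23962 matched RefSeq by Entrez identifier. The array note, the chip and the genotype came from the labels. The number of arrays limits the precision. The members and lists were chosen with earlier results of these data known, so no list carries a test of its own. Genes given on every array were those past the threshold in any comparison and, where none passed, the 3 smallest p-values; the other genes named are members described with their role group, and Pcyt2, Aacs and Ch25h are the only genes of the other lipid lists past the threshold. Alternatives were chip as a block, quantile normalization, 16 added before log2, other filters, the damaged array kept, array weights, a muscle covariate, the arrays high in muscle genes left out, each chip alone, every probe, and each array left out; B cell, neutrophil and cell cycle covariates were added after seeing the data. Promoter windows came from RefSeq (GRCm38.p6), scanned with Python 3.11.15. Runx2 itself was not analysed here.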

Additional observations from a re-analysis of the deposited data

Results flagged for a closer look

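In 7 of 99 sets of 4 arrays tested, 1 array stood apart from the other three of its genotype by Dixon's criterion, and chance flags about 1 in 20 such sets. R-Het replicate 1 stood apart in 3 of them, at 8.40 for Cyp51 against 7.65 to 7.77 on the other R-Het arrays, at 9.24 for Insig2 against 9.61 to 9.69, and at 6.67 for Srebf1 against 6.39 to 6.40 (log2 intensity). A-KO:R-Het replicate 2 was low for Nsdhl, at 6.63 against 7.0 to 7.04, and for Elovl6, at 8.23 against 8.52 to 8.53. WT replicate 3 was at 6.59 for Lss against 6.74 to 6.76, and WT replicate 2 at 6.27 for Srebf1 against 6.67 to 6.70.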

How the results depend on the processing

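In the comparisons where a gene passed the threshold, or had one of the 3 smallest p-values, its change kept its sign under every alternative run; other changes of single genes were not followed. The members' median changed sign in A-KO:R-Het against A-KO, from -0.07 to 0.01 with a B cell covariate. It also changed sign with averaged loss of 1 Runx2 allele, where it stayed near 0 and reached 0.05 on chip 2 alone. The 2 members past the threshold in A-KO against WT became 1 with chip as a block, with 16 added before log2, with a skeletal muscle covariate and with a cell cycle covariate. In these settings limma called 28, 20, 33 and 40 of all genes. They became 0 with the filter on all 15 arrays, where limma called 4 of 7701 genes, and with the damaged array kept, where it called 0. They also became 0 without the 3 arrays highest in muscle genes (6 of all genes called), on chip 2 alone (0), and with a B cell (0) or neutrophil covariate (7). The members past the threshold became 3 with quantile normalization and 9 with array weights, where limma called 41 and 119 of all genes against 31. The 4 members with averaged Axin2 loss became 3 with chip as a block and 10 with array weights, where 55 and 216 of all genes were called against 64. They became 0 with the damaged array kept (2 of all genes called), without the 3 muscle-high arrays (18) and on chip 2 alone (3). The count was also 0 with a B cell (0 of all genes called), neutrophil (3) or cell cycle covariate (74). No counts past the threshold are given for chip 1 alone, where A-KO replicate 1 was the only A-KO array used. The count of 0 in A-KO:R-Het against WT became 2 with the filter on all 15 arrays, where limma called 207 of 7701 genes. It became 8 with array weights, 1 with the neutrophil and 3 with the cell cycle covariate. There 351, 60 and 218 of all genes were called, against 187. With the B cell covariate the median change was 0.11 in A-KO against WT, 0.11 with averaged Axin2 loss and -0.032 for the interaction. The R-Het median against WT was 0.010 without the 3 muscle-high arrays, and on chip 1 alone the medians were 0.029 in A-KO:R-Het against R-Het and -0.25 in A-KO:R-Het against A-KO. The causes were not tested. Leaving out 1 array at a time gave counts of 0 to 5 in A-KO against WT, 0 to 10 with averaged Axin2 loss and 0 to 2 in A-KO:R-Het against WT. Over all genes limma called 4 to 73, 21 to 199 and 67 to 222 there. The medians then ranged from 0.31 to 0.44 in A-KO against WT, from 0.12 to 0.21 in A-KO:R-Het against R-Het, from 0.23 to 0.28 with averaged Axin2 loss, from 0.04 to 0.18 in R-Het against WT, from -0.14 to -0.03 in A-KO:R-Het against A-KO, from -0.03 to 0.04 with averaged loss of 1 Runx2 allele, from 0.22 to 0.30 in A-KO:R-Het against WT and from -0.26 to -0.14 for the interaction. No paired analysis was possible because the labels give no replicate numbers and the numbers follow record order. Signals near the array median limit what can be detected for Fasn, Tm7sf2, Srebf1 and Fads2. WT levels of Lss, Nsdhl, Idi1, Sc5d and Mvd were also close to it.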
